A study of Mus musculus with 4 samples.

Results

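Genes of activin and TGF-beta signalling were followed in cultured mouse macrophages after CRISPR-Cas9 targeting of Adcy7. The set holds 10 of the 55401 genes of the deposited count table, namely the ligand genes Inhba and Tgfb1, the antagonist Fst, the receptors Acvr1, Acvr1b, Tgfbr1, Acvr2a and Tgfbr2, the inhibitory SMAD gene Smad7 and the response gene Tgfbi. The set was chosen on a measured value of this same comparison, the high Inhba count in the Adcy7-targeted libraries, and was filled up with other genes of the pathway. The values of the 10 genes are therefore given as a description and carry no test of their own.

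The cells were bone marrow-derived macrophages (BMDM) of C57BL/6J mice, that is, macrophages differentiated in a dish from marrow. On day 1 after isolation the marrow was exposed to CRISPR-Cas9 lentivirus (multiplicity of infection 30), and macrophages formed over 5 days. The lentivirus was directed at Adcy7, an adenylyl cyclase gene, in 2 libraries (Adcy7 knockout), and in 2 others at Rosa, a locus commonly used as a neutral target site (Rosa control), so that both groups carried virus and Cas9. The labels do not give the guides or the number of virus preparations or cultures behind a group, nor whether replicates came from separate mice, and the p-values therefore reflect a spread between libraries that may be technical only.

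Activins and TGF-betas are secreted dimers of 1 protein superfamily. A ligand brings a type II receptor together with a type I receptor, and the type I kinase phosphorylates receptor SMAD proteins, which move to the nucleus with SMAD4 and act on transcription. Activin A, a dimer of the chain that Inhba encodes, uses type II receptors such as ACVR2A with the type I receptor ACVR1B, whereas TGF-beta 1 uses TGFBR2 with TGFBR1. Macrophages are known to make both ligands, and activin A is known as a product of activated macrophages.

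The libraries held 61782358 to 71914179 estimated counts, and levels are given as CPM, the count scaled to a library total of 1e6. Adcy7 was at 59.4 and 58.8 CPM in the knockout libraries and at 122 and 125 CPM in the controls, so its mRNA was lower but still present. Of 10 macrophage markers 8 were lower in the knockout and 1, Cd14, was higher, by the test over all genes described below. In that test 23.4% of all tested genes were lower and 23.4% higher. Adgre1, Csf1r, Cd68 and Itgam were at 744 CPM or more in each of the 4 libraries, while Mertk was at 0.278 and 0.356 CPM against 18.3 and 16.7 CPM. In bulk libraries, fewer cells of a type and less RNA per cell cannot be told apart.

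The 10 genes split by direction and by size. All of them passed the filter on low counts. When all 15832 tested genes were compared by the quasi-likelihood test of edgeR and adjusted after Benjamini and Hochberg, 6 of the 10 were called higher in the knockout, 2 were called lower and 2 were not called, at an adjusted p of 0.05. In the same test 46.7% of all tested genes were called, 23.4% higher and 23.4% lower. The groups did not overlap for 9 of the 10 genes, and for 75.2% of all tested genes. The median log2 fold change (knockout minus control) was 0.69 over the 10 genes and 0.01 over all tested genes. Nothing is read from these counts, since the comparison itself chose the set.

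**Figure D1:**
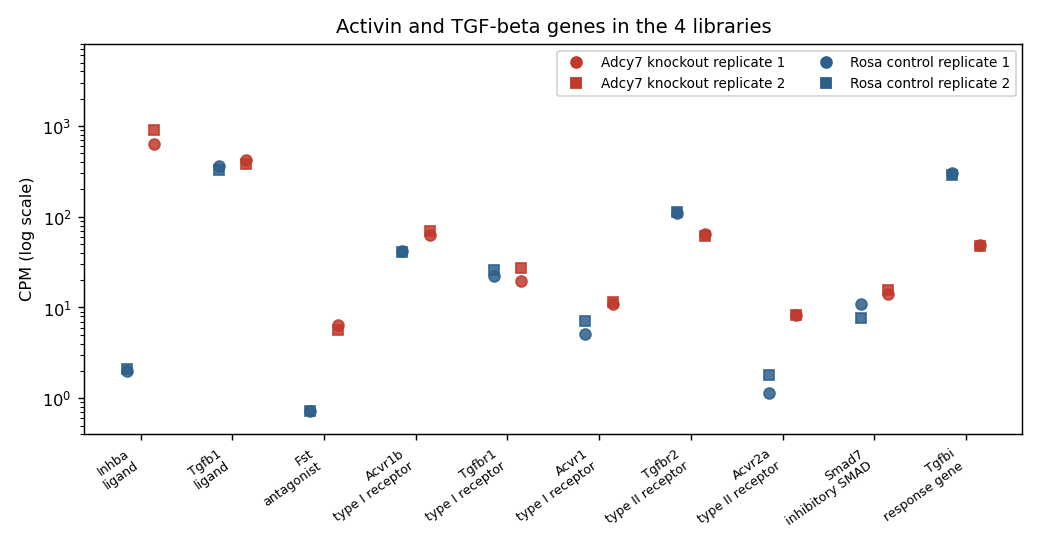
Level of each of the 10 genes in each library, in CPM on a log axis, with the gene's role under its name. Knockout points are red and control points blue, with a circle for replicate 1 and a square for replicate 2. The Inhba points of the 2 groups lie farthest apart, at 630 and 914 CPM against 2.01 and 2.08 CPM, and the Tgfbr1 points overlap.

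Inhba, which encodes the activin beta A chain, was far higher in the knockout than in the control. It was at 630 and 914 CPM in knockout replicates 1 and 2 and at 2.01 and 2.08 CPM in control replicates 1 and 2. Both knockout values lay far above both control values, and the means of 772 CPM ± 200.5 and 2.04 CPM ± 0.0481 (SD, n = 2 each) stood in a ratio of 378. The fitted log2 fold change was 8.57 (SE 0.21), which ranked 57 from the top among the 15832 tested genes. The control level rested on 132 and 145 counts. If 4 counts stand for 1 sequenced fragment, as the low counts of the table may show, that is 33.0 and 36.3 fragments, so the control level is low but not at the limit of detection.

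The knockout libraries themselves differed in Inhba. Replicate 2 was 1.45-fold above replicate 1, a log2 difference of 0.54 against a median of 0.15 for the 12204 tested genes with a mean of at least 1 CPM. This placed Inhba at the 94.1st percentile of the spread between the knockout replicates, while the control replicates differed by 0.04 on the log2 scale.

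Inhba (ENSMUSG00000041324) lies on chromosome 13. Genes on the opposite strand overlap its span but not its exons in the annotation used. The antisense gene Gm48444 had 20 and 22 counts in the knockout and 0 in both controls, and the processed pseudogene B230303A05Rik had 450 and 552 against 170 and 159. Both are small beside the 45327 and 56461 counts of Inhba in the knockout libraries. In the controls B230303A05Rik had more counts than Inhba, which had 132 and 145.

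The promoters of Inhba and Tgfbi, the genes with the largest differences in the 2 directions, are shown because they lie on 1 chromosome and differ in base composition and in matches to SMAD-related letters. Each window runs from 250 bases before to 50 bases after the start in RefSeq (GRCm38.p6), 5′ to 3′ on the plus strand, at chr13:16011601-16011900 for Inhba and chr13:56609336-56609635 for Tgfbi. Capitals mark matches to CAGAC, the SMAD box, on either strand.
Inhba: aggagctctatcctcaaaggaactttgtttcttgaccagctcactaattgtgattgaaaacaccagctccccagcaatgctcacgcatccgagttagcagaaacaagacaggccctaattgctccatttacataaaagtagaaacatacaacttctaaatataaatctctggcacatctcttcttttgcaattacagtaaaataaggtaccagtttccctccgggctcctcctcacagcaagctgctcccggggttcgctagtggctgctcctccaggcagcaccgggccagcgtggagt
Tgfbi: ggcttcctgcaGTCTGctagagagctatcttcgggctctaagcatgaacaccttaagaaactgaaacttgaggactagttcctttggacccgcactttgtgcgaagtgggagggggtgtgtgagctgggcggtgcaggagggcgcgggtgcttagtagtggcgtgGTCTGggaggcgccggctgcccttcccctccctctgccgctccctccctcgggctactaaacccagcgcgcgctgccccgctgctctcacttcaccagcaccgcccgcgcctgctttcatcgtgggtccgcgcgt

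A total of 4 motifs were searched on both strands of these windows, namely TGACGTCA (the full cyclic AMP response element), TGACG (its shorter form, which every full element also holds), TGAGTCA (the AP-1 element) and CAGAC. The Inhba window held none of them, and 47.7% of its bases were G or C. The Tgfbi window held 2 matches to CAGAC and none to the other motifs, with 63.3% G or C. Of the 32851 promoter windows in the RefSeq table, 1.79% held TGACGTCA, 20.8% TGACG, 5.2% TGAGTCA and 49.6% CAGAC, and the median G or C share was 52.7%. Windows were found for 8 of the 10 genes, which were all but Fst and Smad7, with 2 windows for Tgfbr1. In the other windows, CAGAC had 1 match in Acvr2a, 1 in Tgfbr2 and 1 in the second Tgfbr1 window, and the other 3 motifs had none. Among the 9 windows that of Inhba had the lowest G or C share, and Acvr1 had the highest, 83.7%. A match is a description of the letters, and a window without one says nothing about a factor.

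Tgfb1, the gene of TGF-beta 1, was abundant in every library. It was at 417 and 382 CPM in the knockout and at 359 and 327 CPM in the control. The groups did not overlap, but the gap between the nearest libraries was smaller than the gap between the replicates of either group. The log2 fold change was 0.24 (SE 0.09) and was not called. It was called with the replicate number as a block (0.23), with DESeq2 (0.24), with counts divided by 4 (0.25) and without knockout replicate 2 (0.33). The 2 ligand genes thus stood in different relations in the groups, with a ratio of means of 378 for Inhba and of 1.16 for Tgfb1.

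Fst encodes follistatin, a secreted protein that binds activin and keeps it from its receptors. It was at 6.41 and 5.68 CPM in the knockout and at 0.730 CPM in both controls. All knockout values were above the controls, with a ratio of means of 8.28 and a log2 fold change of 3.06 (SE 0.25). The control level rested on 48 and 51 counts. Fst shares exon sequence with the antisense gene Gm47040, which had 2 counts in 1 knockout library and 0 in the other 3.

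Levels of different genes can be compared only per length, here as CPM per kilobase of the gene's joined exons. On that scale Inhba was 70.6 and 116 times Fst in the knockout libraries and 1.98 and 2.04 times Fst in the controls, so the ligand gene exceeded its antagonist in all 4 libraries and by far more in the knockout. Against Tgfb1, the Inhba level per kilobase was 1.19 and 1.89 times as high in the knockout and 0.00442 and 0.005 times as high in the control.

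**Figure D2:**
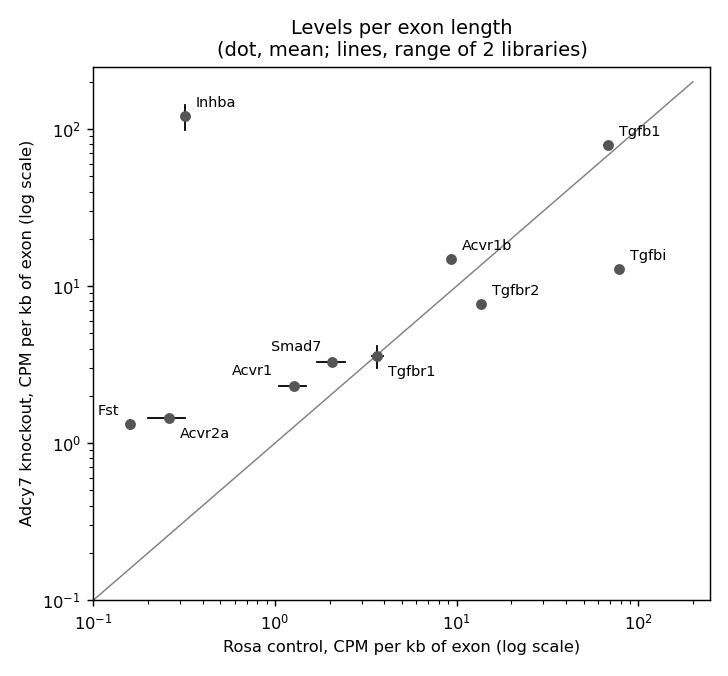
Mean level per kilobase of exon in the control (horizontal axis) and the knockout (vertical axis), both in CPM per kilobase on log axes, 1 dot a gene, with lines for the range of the 2 libraries of a group and a grey line for equal levels. Inhba lies far above the line at 121 against 0.319, Tgfbi below it at 12.8 against 78.3, and Tgfb1 near it.

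The type I receptors, the kinases that signal to SMAD proteins, differed less than the ligand Inhba. Acvr1b, the activin type I receptor also called ALK4, was at 63.0 and 69.2 CPM in the knockout and at 41.5 and 41.2 CPM in the control. Its groups did not overlap, and the log2 fold change was 0.69 (SE 0.10). Acvr1, which encodes the type I receptor ALK2 of bone morphogenetic proteins (BMP) and activins, was at 11.0 and 11.4 CPM in the knockout and at 5.08 and 7.16 CPM in the control. The knockout libraries were close to each other, whereas the control libraries differed 1.41-fold, at the 95.0th percentile of the spread between controls. That percentile was taken among genes not matched for level. The log2 fold change of 0.88 (SE 0.20) was 0.63 without control replicate 1 and 1.16 without control replicate 2.

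Tgfbr1, the type I receptor of TGF-beta, was the 1 gene of the set whose groups overlapped. It was at 19.6 and 27.2 CPM in the knockout and at 22.3 and 25.7 CPM in the control. Both knockout values lay outside the control range, 1 on each side, and the log2 fold change was -0.02 (SE 0.16). Leaving out knockout replicate 1 gave 0.17, and leaving out knockout replicate 2 gave -0.24, so no direction can be given.

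The type II receptors, which bind the ligand first, differed in opposite directions. Acvr2a, the activin type II receptor, was at 8.18 and 8.30 CPM in the knockout and at 1.14 and 1.82 CPM in the control, with a log2 fold change of 2.49 (SE 0.27). The control level rested on 75 and 127 counts, and the control replicates differed 1.59-fold. Acvr2a shares exon sequence with Orc4 on the opposite strand, and the labels name no method that keeps strand. Orc4 was at 17.6 and 27.0 CPM in the knockout and at 17.9 and 18.1 CPM in the control, and did not separate the groups.

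Tgfbr2, the TGF-beta type II receptor, was at 64.3 and 62.0 CPM in the knockout and at 111 and 113 CPM in the control. The knockout level was 56.5% of the control level, the replicates of each group lay close together (the SD was 1.59 CPM for the knockout libraries and 1.80 CPM for the control libraries, n = 2 each), and the log2 fold change was -0.81 (SE 0.09). Per kilobase, Tgfbr2 was 5.46 and 5.19 times Acvr2a in the knockout and 67.3 and 43.2 times Acvr2a in the control. Acvr2a thus made up 15.5% and 16.2% of the summed level of these 2 type II receptor genes in the knockout, against 1.46% and 2.26% in the control. Tgfbr2 remained the more abundant of the pair in all 4 libraries.

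Smad7, which encodes an inhibitory SMAD that blocks type I receptors and is itself a target of the pathway, was at 14.1 and 15.6 CPM in the knockout and at 11.0 and 7.66 CPM in the control. The groups did not overlap, and the log2 fold change was 0.69 (SE 0.18). The control replicates differed 1.43-fold, and without control replicate 2 the log2 fold change was 0.46 and the gene was no longer called.

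Tgfbi, which encodes a secreted matrix protein named for its induction by TGF-beta, was at 49.0 and 47.8 CPM in the knockout and at 305 and 286 CPM in the control. The 2 groups were far apart and each was tight. The knockout level was 16.4% of the control level, and the log2 fold change was -2.59 (SE 0.09). Smad7 and Tgfbi, both known TGF-beta targets, therefore lay on opposite sides. Per kilobase, Tgfbi was 4.16 and 3.67 times Smad7 in the knockout and 33.3 and 44.8 times Smad7 in the control.

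**Figure D3:**
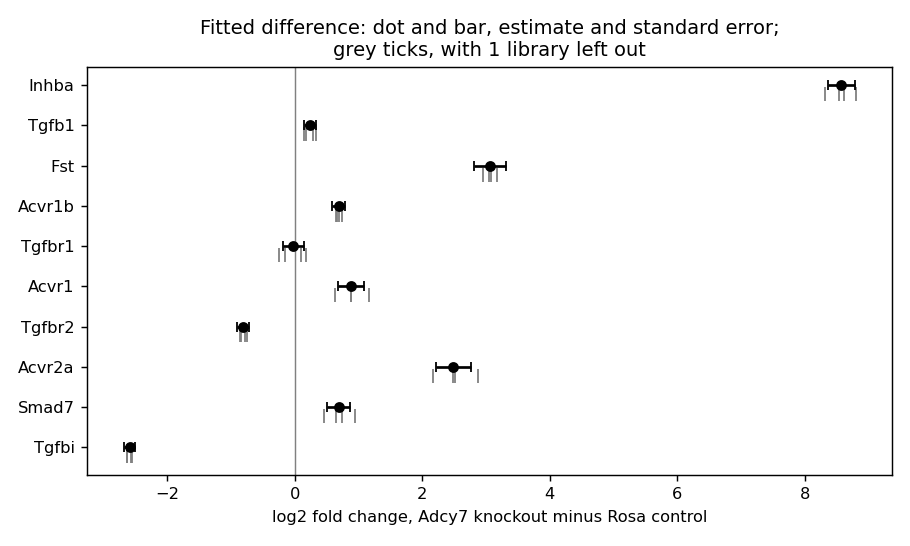
Fitted log2 fold change of each gene (knockout minus control, horizontal axis) as a dot with its standard error, and as grey ticks the values with 1 of the 4 libraries left out. Inhba stands at 8.57, Fst at 3.06, Acvr2a at 2.49 and Tgfbi at -2.59, and the ticks of Tgfbr1 lie on both sides of 0.

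Ordered by level per kilobase, the control libraries had Tgfbi (78.3) first, then Tgfb1 (68.0), Tgfbr2 (13.7), Acvr1b (9.36), Tgfbr1 (3.67), Smad7 (2.06), Acvr1 (1.27), Inhba (0.319), Acvr2a (0.26) and Fst (0.159). Inhba and Acvr2a did not differ beyond the spread of their libraries in this order, and the other neighbours did. In the knockout the order was Inhba (121), Tgfb1 (79.2), Acvr1b (15.0), Tgfbi (12.8), Tgfbr2 (7.71), Tgfbr1 (3.58), Smad7 (3.29), Acvr1 (2.31), Acvr2a (1.45) and Fst (1.32). There the ranges of Tgfbr1 and Smad7 overlapped, and those of the other neighbours did not. Inhba moved from the eighth place to the first, and Tgfbi from the first to the fourth.

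Part of the set differed more between the control replicates than most genes did. Acvr1, Acvr2a and Smad7 each lay at or above the 95.0th percentile of the spread between controls, with log2 differences of 0.46, 0.50 and 0.49 where the median gene had 0.11. The genes ranked were not matched for level, so these percentiles cannot separate a wide spread from the sampling of low counts. Control replicate 2 was the higher one for Acvr1 and Acvr2a and the lower one for Smad7. In the knockout, Inhba and Tgfbr1 had the widest spread of the set, with replicate 2 higher for both.

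Another 96 genes of the pathway were listed by role, and 78 of them were tested. Of these 26 rose and 19 fell in the knockout by the same test, and 33 were not called. The share called was 57.7%, where 46.7% of all tested genes were called, 23.4% higher and 23.4% lower. All lists were drawn up with earlier results of these libraries known, so nothing is read from this share or from the counts by list. The median log2 fold change of the 78 was 0.12. The group with the largest share of falls was a list of genes known to depend on TGF-beta in microglia, with 9 of 11 lower, and no SMAD regulator fell.

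**Figure D4:**
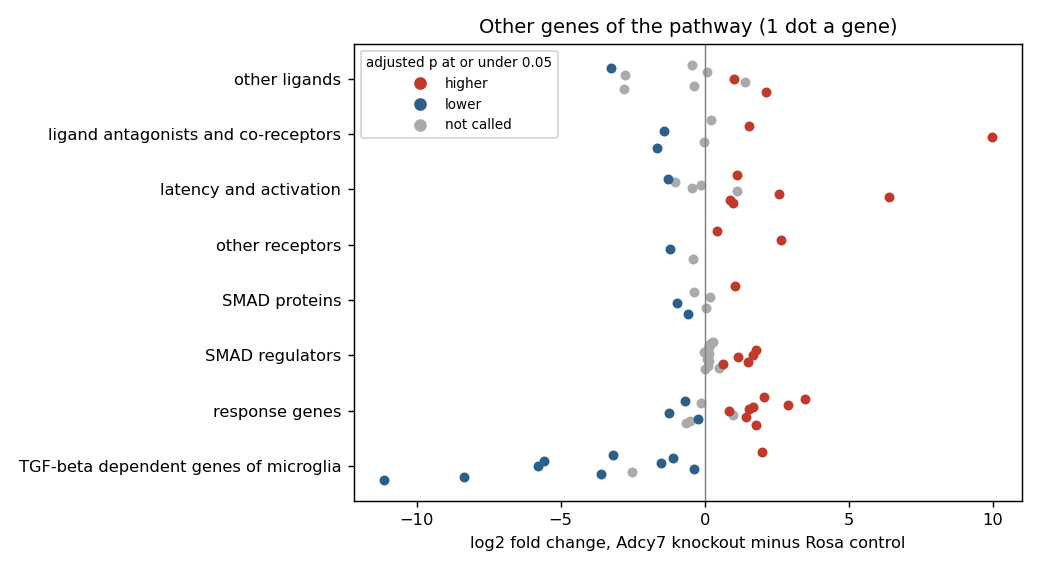
Log2 fold change (knockout minus control, horizontal axis) of the 78 other tested pathway genes by role, 1 dot a gene, red for higher and blue for lower at an adjusted p of 0.05 and grey for not called. None of the SMAD regulators lies below -0.04, and the microglial list lies mostly to the left, down to C1qa at -11.12.

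Among 16 other ligand genes, 9 were tested, of which 2 rose, 1 fell and 6 were not called. The share called was 33.3%, against 46.7% of all tested genes. Bmp2, a BMP ligand, rose from 2.81 and 2.78 CPM to 11.5 and 12.4 CPM (log2 fold change 2.11, SE 0.17, edgeR adjusted p of 2.78e-05). Gdf15, a distant member of the superfamily that is induced by stress, rose from 60.9 and 51.4 CPM to 120 and 104 CPM (1.01, SE 0.12, edgeR adjusted p of 0.000245). The other inhibin and activin chains were at or near 0. Inha, Inhbc and Inhbe had no count in any library, and Inhbb was at 0.153 CPM in knockout replicate 1 and at 0 elsewhere. Of the activin chains that can pair with the product of Inhba, none other was thus measured above 0.153 CPM. Tgfb2 and Tgfb3 stayed at or below 0.684 CPM in all libraries.

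Of 10 antagonist and co-receptor genes 6 were tested, with 2 higher and 2 lower (66.7% called, against 46.7% of all tested genes). Fstl1, a secreted glycoprotein gene of the follistatin family, was at 139 and 173 CPM in the knockout and had 21 and 0 counts in the controls (edgeR adjusted p of 2.18e-06). Its fitted fold change depends on those few counts and ran from 8.95 to 16.36 on the log2 scale over the settings tried. Bambi, a pseudoreceptor without a kinase domain that dampens the pathway, fell from 7.72 and 7.51 CPM to 1.93 and 2.90 CPM (-1.65, SE 0.24, edgeR adjusted p of 0.000688). Tgfbr3, the co-receptor betaglycan, rose from 0.608 and 0.615 CPM to 1.28 and 2.23 CPM (1.53, SE 0.41, edgeR adjusted p of 0.0164), but without knockout replicate 2 it was not called (edgeR adjusted p of 0.129). Fstl3, another activin-binding protein gene, was lower than the control at 0.473 and 0.793 CPM against 1.89 and 1.47 CPM (edgeR adjusted p of 0.0236); it is named after its values were seen, as the relative of Fst that moved the other way.

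Of 11 genes of TGF-beta latency and activation 10 were tested, with 5 higher and 1 lower. Among all tested genes 46.7% were called, 23.4% higher and 23.4% lower, and nothing particular to the list is read from its count. Nrros, which holds latent TGF-beta 1 on macrophages and microglia, fell from 315 and 271 CPM to 128 and 113 CPM (log2 fold change -1.26, SE 0.11, edgeR adjusted p of 4.01e-05). Furin, the protease that cleaves TGF-beta and activin precursors, rose from 161 and 152 CPM to 320 and 292 CPM (0.98, SE 0.09, edgeR adjusted p of 5.8e-05). Thbs1, thrombospondin 1, which can activate latent TGF-beta and is also abundant in platelets, rose from 443 and 341 CPM to 830 and 861 CPM (1.13, SE 0.12, edgeR adjusted p of 0.000117). Itgb8, an integrin chain that activates latent TGF-beta together with the chain of Itgav, was at 11.9 and 13.4 CPM in the knockout and at 0.304 and 0 CPM in the control (edgeR adjusted p of 0.000127). It too is named after its values were seen.

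Of 7 other receptor genes 4 were tested, with 2 higher and 1 lower (75.0% called, against 46.7% of all tested genes). Acvrl1, the type I receptor ALK1, fell from 61.2 and 60.5 CPM to 28.3 and 23.2 CPM (log2 fold change -1.22, SE 0.13, edgeR adjusted p of 0.000138). Bmpr1a, a BMP type I receptor, rose from 1.48 and 2.76 CPM to 13.2 and 12.8 CPM (2.63, SE 0.29, edgeR adjusted p of 0.000151). Bmpr2, a BMP type II receptor, was at 23.5 and 23.4 CPM against 18.6 and 16.3 CPM (0.44, SE 0.11, edgeR adjusted p of 0.0104), and was not called without control replicate 2 (edgeR adjusted p of 0.139). Acvr2b, the relative of Acvr2a, was at 0.973 and 0.680 CPM in the knockout and at 1.48 and 0.773 CPM in the control, and was not called. Acvr1c, a further type I receptor for activin, had no count.

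Of 7 SMAD genes 6 were tested, with 1 higher and 2 lower (50.0% called, against 46.7% of all tested genes). Smad3, a receptor SMAD of activin and TGF-beta, fell from 40.3 and 38.4 CPM to 19.8 and 20.5 CPM (log2 fold change -0.95, SE 0.10, edgeR adjusted p of 0.000106). Smad2, its partner in the same branch, was at 30.9 and 33.1 CPM against 28.0 and 34.3 CPM and was not called. Smad6, the other inhibitory SMAD gene, rose from 17.1 and 15.5 CPM to 33.8 and 32.3 CPM (1.04, SE 0.10, edgeR adjusted p of 9.62e-05), on the same side as Smad7. Smad1, a receptor SMAD of the BMP branch, was at 9.55 and 10.7 CPM against 16.9 and 13.9 CPM (-0.59, SE 0.14, edgeR adjusted p of 0.00949), and was not called without control replicate 1 (edgeR adjusted p of 0.102).

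All 17 listed SMAD regulators were tested, and 5 rose, none fell and 12 were not called. The share called was 29.4%, against 46.7% of all tested genes, and nothing particular to the list is read from it. Tgif1, a repressor of SMAD-driven transcription, rose from 38.7 and 33.7 CPM to 116 and 127 CPM (log2 fold change 1.77, SE 0.11, edgeR adjusted p of 5.67e-06). Smurf1, a ubiquitin ligase for SMAD proteins and receptors, rose from 24.7 and 25.1 CPM to 81.3 and 74.5 CPM (1.66, SE 0.11, edgeR adjusted p of 1.04e-05). Skil, which encodes the SMAD-binding repressor SnoN, rose from 40.4 and 44.2 CPM to 77.3 and 108 CPM (1.14, SE 0.15, edgeR adjusted p of 0.000477). The 2 others that rose were Pmepa1 and Nedd4l, named because the count is small.

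All 15 listed response genes were tested, and 8 rose, 3 fell and 4 were not called (median log2 fold change 0.99, against 0.01 over all tested genes). Of all tested genes 23.4% were higher and 23.4% lower, and the list was drawn up with earlier results of these libraries known, so no direction of the group is read from its count. Bhlhe40, a transcription factor gene, rose from 44.9 and 40.2 CPM to 143 and 145 CPM (log2 fold change 1.77, SE 0.10, edgeR adjusted p of 3.21e-06). Id2, an inhibitor of basic helix-loop-helix factors that responds to BMP, rose from 107 and 106 CPM to 277 and 332 CPM (1.53, SE 0.10, edgeR adjusted p of 8.26e-06). The 3 that fell were Klf10, Cdkn1a and Fn1. These genes also respond to other signals.

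Genes known from microglia, the macrophages of the brain, to depend on TGF-beta were mostly lower. Of 11 tested, 9 fell, 1 rose and 1 was not called (median log2 fold change -3.19). The share called was 90.9%, against 46.7% of all tested genes. The list was drawn up with falls of some of its members already known from these libraries, so its count is no independent evidence of a direction. C1qa, a complement chain gene, was at 76.5 and 66.9 CPM in the control and had 4 and 0 counts in the knockout (edgeR adjusted p of 2.57e-07). Fcrls, an Fc receptor-like gene, went from 81.6 and 73.1 CPM to 0.32 and 0.13 CPM (edgeR adjusted p of 2.93e-07). Mertk, a receptor for dead cells that is also on the macrophage list, had a log2 fold change of -5.77 (SE 0.21, edgeR adjusted p of 5.53e-07). The member that rose was Tmem119, from 19.4 and 17.6 CPM to 77.7 and 68.6 CPM (2.0, SE 0.12, edgeR adjusted p of 6.37e-06), named because it stood alone.

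Some markers of several other cell types were higher in the knockout libraries, while none of the 10 neutrophil markers was. Of all tested genes, 23.4% were called higher and 23.4% lower. Fibroblasts and other stromal cells are known to express many genes of this pathway. Their 10 markers summed to 44.2 and 50.4 CPM in the knockout and to 3.22 and 2.19 CPM in the control. Dcn, at 32.9 and 39.9 CPM, gave most of that sum, and 3 of the 6 tested markers, Dcn, Lum and Pdgfrb, were higher. The collagen genes Col1a1, Col1a2 and Col3a1 stayed at or below 0.761 CPM in every library, and Pdgfra, Postn, Cxcl12 and Col6a1 were at or below 0.122 CPM.

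Platelets are known to store TGF-beta 1. All 10 platelet and megakaryocyte markers were higher, with sums of 360 and 319 CPM against 201 and 185 CPM. For this and the marker counts that follow, 23.4% of all tested genes were called higher and 23.4% lower. Of 7 tested eosinophil markers 6 were higher (sums of 290.3 and 230 CPM against 35.8 and 32.1 CPM), of 8 tested mast cell and basophil markers 7 (120 and 114 against 37.5 and 28.3), and of 8 B cell markers 7 (41.6 and 44.1 against 27.4 and 28.2), while 1 B cell marker was lower. Of 6 tested dendritic cell markers 3 were higher and 1 lower (44.9 and 45.4 CPM against 10.7 and 10.03), and of 4 tested endothelial markers 2 were higher (87.9 and 78.5 against 25.4 and 20.8). Each of these 2 sums rested mostly on 1 gene in the knockout, with Ccr7 at 41.2 and 41.1 CPM and Vwf, which megakaryocytes also express, at 68.5 and 57.6 CPM. Cdh5 and Kdr were not called. Of 4 tested T and NK cell markers 1 was higher and 1 lower, and of 10 neutrophil markers none was higher and 5 were lower. Cma1, Ncr1, Tek and Cldn5 had no count in any library. What part these cells had in the values of the 10 genes was not tested.

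**Figure D5:**
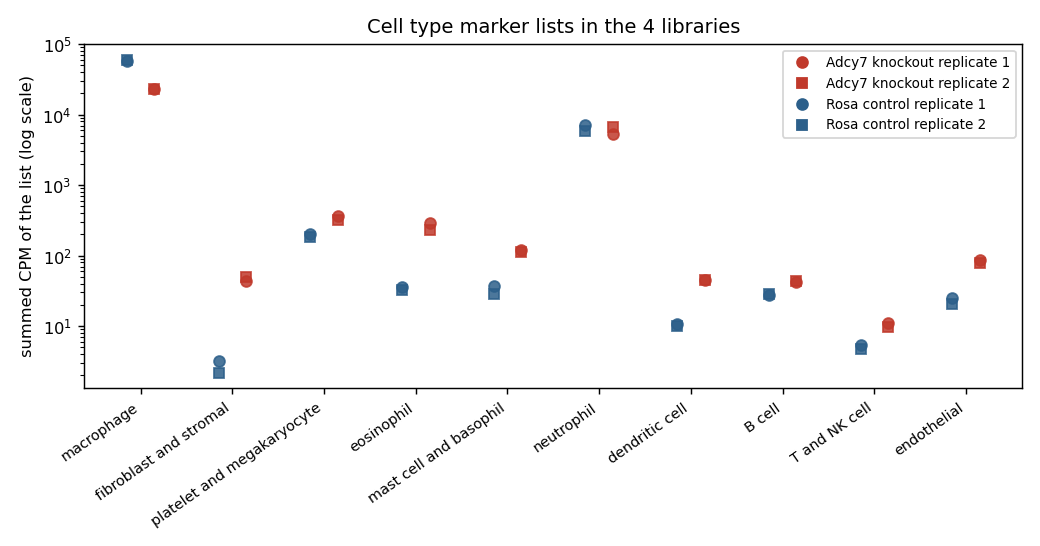
Summed level of each cell type marker list in each library, in CPM on a log axis, with knockout libraries in red and control libraries in blue. The macrophage sum lies between 23140 and 60180 CPM and is lower in the knockout. The stromal sum is 44.2 and 50.4 CPM against 3.22 and 2.19 CPM, and the neutrophil sums overlap. In each library Lyz2 gives most of the macrophage sum, Prg2 of the eosinophil sum and Pf4 of the platelet and megakaryocyte sum.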

How the data were processed

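The 2 Adcy7-targeted and 2 Rosa-targeted BMDM libraries were made from poly(A) RNA, per the labels' protocols. The deposited table holds estimated counts (expected counts) per Ensembl gene, rounded to whole numbers and not scaled between libraries. The submitters' processing notes name HISAT2, StringTie, fastp and edgeR and the build GRCm39, while versions, order and settings were not given in the labels. Counts at multiples of 4 were in excess (30.5% to 32.2% of counts from 1 to 40 per library, where 25% would follow without a step), so 1 fragment may be worth about 4 counts. This is an assumption.

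Columns named KO3 were matched to the Adcy7KO titles by KO and replicate number, and what the digit stands for is not given. Symbols (55141 of 55401 IDs), chromosomes and exon lengths came from GENCODE M21 (GRCm38), a build other than the authors', and where IDs shared a symbol the one with most counts kept it. Joined exons can exceed the length of the transcripts present, which lowers levels per kilobase.

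Genes were filtered with filterByExpr, scaled by TMM and compared in R 4.3.3 by the two-sided quasi-likelihood test of edgeR 4.0.16, as planned for counts (2 residual degrees of freedom, threshold 0.05 after Benjamini-Hochberg adjustment across all genes tested). The script was tested on simulated data. Standard errors were taken from the fold change and its F statistic. Replicate spread was the absolute difference of log2(CPM + 0.5). The members and all lists were chosen with earlier results of these data known. Named genes are the 10 members, up to 3 called genes of each pathway list with the smallest adjusted p, a mean of at least 1 CPM and groups that do not overlap, and Adcy7; 1 of them is not reported here. Alternatives were other scaling, no filter, DESeq2 1.42.0, a replicate block, counts divided by 4 and leaving out each library. Without molecular identifiers, PCR copies are counted too, so counts overstate the number of molecules.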

Additional observations from a re-analysis of the deposited data

How the results depend on the processing

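The count of all genes called was 7400 in the fit as reported. It was 7045 with the replicate block, 6543 without the low-count filter, 7106 with DESeq2, and 5850 to 7292 with 1 library left out. Same-numbered libraries of the 2 groups shared little, with a correlation of 0.015 between their deviations from the group means, so the numbers were not taken to pair the samples. The block moved none of the counts given here by more than 1.5 times. Other pathway genes called numbered 25 to 26 higher and 17 to 19 lower over the settings that kept all 4 libraries. In the settings that kept all 4 libraries, 6 or 7 of the 10 genes were called higher and 2 lower. Of all genes tested in those settings, the calls ran from 6543 of 23096 without the filter to 7443 of 13234 with counts divided by 4. Nothing is read from the counts of the 10 genes. Smad7 was not called without control replicate 2, and Tgfb1, not called in the fit as reported, was called in 4 of the other 10 settings (the replicate block, DESeq2, counts divided by 4 and without knockout replicate 2), at log2 fold changes of 0.15 to 0.33 over all settings. Of the 24 other genes tracked through the 10 alternatives, calls were lost only for Tgfbr3, Bmpr2 and Smad1, each without 1 library. No called gene among those tracked changed direction. The scalings moved the median of all genes by less than 0.1 on the log2 scale. Depth limits the control levels of Inhba, Fst, Acvr2a and Fstl1, which rest on few counts.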
